A study of Mus musculus with 20 samples.

Results

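The mRNA levels of 10 feedback genes of MAP kinase signalling were followed in the abdominal aorta of mice, namely 7 genes of MAP kinase phosphatases (*Dusp1*, *Dusp2*, *Dusp4*, *Dusp5*, *Dusp6*, *Dusp8* and *Dusp10*) and 3 genes of Sprouty-type inhibitors (*Spry2*, *Spry4* and *Spred1*). The members were chosen by name and were read from the 43422 genes listed for each of 20 mice. The mice were labelled as C57BL/6, the substrain in the methods being C57Bl/6NCrl, and only males were studied according to the methods. They were labelled 6 months old, whereas the methods give a younger age at pump implantation, and carried osmotic pumps under the skin for 14 days. In 5 WT mice the pump delivered saline, and in 5 WT mice it delivered angiotensin II (Ang II), a vasoconstrictor peptide, at 1000 ng/kg per minute. The same infusions were given to mice lacking *Plod1*, the gene of the collagen lysyl hydroxylase LH1 (*Plod1*-/- mice), with 5 mice per infusion. The knockout is labelled as a knockout of the gene without a named cell type, and the whole abdominal aorta was sequenced. In such bulk tissue, fewer cells of a type and less RNA per cell cannot be told apart.

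MAP kinase cascades relay signals from growth factor receptors, from the Ang II receptor and from cell stress to ERK, JNK and p38 kinases. The phosphatases of this family remove the activating phosphates from these kinases, and most of their genes are themselves switched on by the cascades, which closes a negative feedback loop. Sprouty proteins and SPRED1 act further upstream and restrain the passage of the signal through Ras and Raf. In smooth muscle cells of arteries, Ang II is a known activator of ERK, and *Dusp1* is known as a gene that such cells switch on in response to it.

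The promoters of *Dusp1*, *Dusp5* and *Dusp8* are shown because they held matches to the 2 rarest of 7 motifs searched, sites of factors that MAP kinase and cAMP signalling act on. RefSeq promoter windows (GRCm38.p6) were found for 8 of the 10 members, all but *Dusp4* and *Spry4*. The 250 bases before each RefSeq start were searched on both strands. The loci given below come from the GENCODE annotation and can start elsewhere. The *Dusp1* and *Dusp8* windows lie inside these loci, and the *Dusp5* window runs past the start of its locus. Capitals mark matches to the cAMP response element (CRE, TGACGTCA), to its half-site (TGACG) and to the CArG box, the site of serum response factor. Each window is printed 5′ to 3′ on the strand of its gene. The *Dusp1* window is chr17:26508473-26508722 on the minus strand, the *Dusp5* window is chr19:53528895-53529144 on the plus strand and the *Dusp8* window is chr7:142095285-142095534 on the minus strand.
Dusp1: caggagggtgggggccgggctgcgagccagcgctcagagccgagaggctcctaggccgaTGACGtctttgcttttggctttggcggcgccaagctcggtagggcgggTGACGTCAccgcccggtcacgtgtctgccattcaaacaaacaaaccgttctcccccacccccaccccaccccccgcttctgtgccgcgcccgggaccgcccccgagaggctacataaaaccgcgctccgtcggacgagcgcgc
Dusp5: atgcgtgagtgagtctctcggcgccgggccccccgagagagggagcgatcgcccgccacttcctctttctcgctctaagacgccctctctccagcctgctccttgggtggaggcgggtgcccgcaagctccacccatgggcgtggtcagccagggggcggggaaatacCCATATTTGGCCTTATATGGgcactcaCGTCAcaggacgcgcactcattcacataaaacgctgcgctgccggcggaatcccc
Dusp8: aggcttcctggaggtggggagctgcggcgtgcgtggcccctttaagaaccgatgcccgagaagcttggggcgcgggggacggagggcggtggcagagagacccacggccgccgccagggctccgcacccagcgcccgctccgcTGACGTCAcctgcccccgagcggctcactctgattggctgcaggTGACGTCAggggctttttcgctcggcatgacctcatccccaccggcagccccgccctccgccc

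The *Dusp1* window held 1 CRE that began 143 bases before the start, and the *Dusp8* window held 2, at 107 and 63 bases. A CRE was present in 1.55% of the 32851 windows of the table and in 2 of the 8 members searched. The *Dusp5* window held 2 CArG boxes side by side, at 82 and 72 bases before the start, and such a box was present in 1.47% of all windows and in 1 member. The half-site, which lies inside every CRE, was found in 3 of the 8 members and in 17.8% of all windows. The GC-rich SP1 site (GGGCGG) was found in 6 members and in 32.7% of all windows, and its matches are not capitalised. No member window held the AP-1 site (TGANTCA, 6.75% of all windows), the ETS site (CCGGAA, 12% of all windows) or the TATA box letters TATAAA (12.4% of all windows). These matches describe the printed windows, and factor binding was not measured.

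The deposited values were FPKM per gene, fragments scaled to gene length and to the size of the library, so levels can be compared between genes. Between 22548 and 30912 genes were above 0 per library. The relative depth of the libraries, estimated from the lowest values, ran from 0.924 to 1.07. Only values close to the lowest of each gene entered this estimate, which holds it near 1, so it could not show large differences in depth. *Plod1*, the targeted gene, ran from 22.8 to 29.7 FPKM in WT mice and from 0 to 0.0415 in *Plod1*-/- mice, as labelled. The smooth muscle markers that define this tissue were present in every library, with summed levels of 2327 to 20757 FPKM over 8 genes. *Xist* RNA was at 1 FPKM or more in 2 libraries, saline-treated *Plod1*-/- mouse 5 (15.1 FPKM) and Ang II-treated *Plod1*-/- mouse 1 (7.93 FPKM), which goes against the stated use of males only, and the fits were repeated without both. Ang II-treated *Plod1*-/- mouse 1 also held a summed smooth muscle level of 16992 FPKM, against 2327 to 6205 in the other 4 mice of its group. Because the library kit did not mark strand, reads of genes on opposite strands cannot be told apart where they overlap. The annotated *Dusp1* locus overlaps *Ergic1*, whose mean level ran from 29.5 to 42.8 FPKM over the groups. The *Dusp10* locus overlaps *1700056E22Rik*, which held 0.740 to 3.72 FPKM in Ang II-treated WT mice and 0.423 to 1.504 FPKM in Ang II-treated *Plod1*-/- mice. The other genes of the files opposite to *Dusp1*, *Dusp8* and *Spry4* were at 0.542 FPKM or less in every mouse.

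*Dusp1* was by far the most abundant member in every group, and *Dusp6* and *Spry2* followed. *Dusp1* encodes a nuclear phosphatase that acts on p38, JNK and ERK and belongs to the immediate early genes. It accounted on average for 87.5% of the summed FPKM of the 10 members in saline-treated WT mice, 69.6% in Ang II-treated WT mice, 80.9% in saline-treated *Plod1*-/- mice and 79.8% in Ang II-treated *Plod1*-/- mice. The other 9 members together held 50.0 ± 12.1 FPKM in saline-treated WT mice and 41.4 ± 3.34 FPKM in Ang II-treated WT mice (SD, n = 5). The same 9 held 41.5 ± 4.04 FPKM under saline and 64.6 ± 11.7 FPKM under Ang II in *Plod1*-/- mice (SD, n = 5).

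In saline-treated WT mice the mean levels descended from *Dusp1* (365 ± 120.3 FPKM, SD, n = 5) to *Spry2* (11.9 ± 4.81), *Dusp6* (11.2 ± 1.45), *Spry4* (7.37 ± 3.12), *Spred1* (6.98 ± 1.18), *Dusp10* (5.39 ± 1.05), *Dusp8* (3.51 ± 1.91), *Dusp5* (2.95 ± 2.18), *Dusp4* (0.465 ± 0.264) and *Dusp2* (0.259 ± 0.0805). Of the 9 pairs of neighbours in this order, 7 overlapped in their ranges over mice, and the order within them is not resolved. The steps without overlap were those from *Dusp1* to *Spry2* and from *Dusp5* to *Dusp4*. *Dusp1* stood clear of the next member in all 4 groups, and *Dusp2* held the lowest mean in 3 of them. In Ang II-treated *Plod1*-/- mice *Dusp4* was last, with a range of 0.225 to 3.21 FPKM that overlapped that of *Dusp2*.

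**Figure D1:**
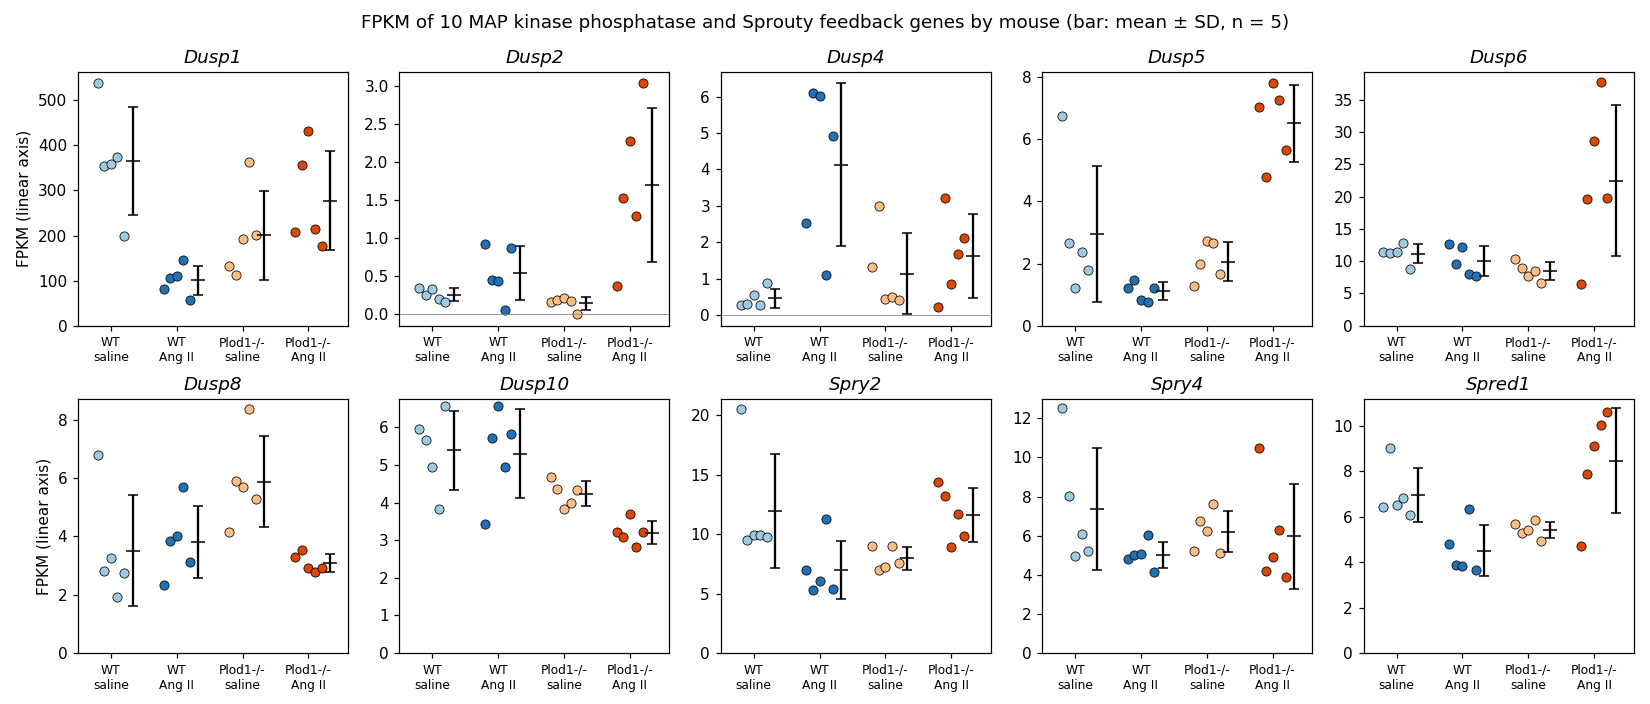
FPKM of each of the 10 genes (linear y axes that differ between panels) in saline-treated and Ang II-treated WT and *Plod1*-/- mice (x axis). Each point is 1 mouse, and the bar beside it gives the mean ± SD (n = 5). *Dusp1* was low in all 5 Ang II-treated WT mice (57.2 to 145 FPKM), and *Dusp5* was high in all 5 Ang II-treated *Plod1*-/- mice (4.79 to 7.80 FPKM).

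The comparisons ask how the aorta responds to Ang II in each genotype and whether the genotypes differ. Each was fitted with limma over all genes on log2(FPKM + 1), on which scale all log2 differences are given, and the pseudocount of 1 makes the differences of low genes smaller. A gene was called when its adjusted p-value was below 0.05 and its log2 fold change was above 1 in size. *Dusp2* was below the filter on low values (at least 1 FPKM in at least 5 of the mice fitted) in every fit, so that 9 members were tested, and *Dusp4* was below it also in the saline comparison. The labels number the mice of each group without naming litters or cultures. Limma's p-values set a group difference against the spread between these mice, which limma moderates over all genes.

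Under Ang II, WT mice had less *Dusp1* and more *Dusp4* than under saline. These were the 2 of 9 tested members that were called, against 8.66% of all 11994 genes tested, and *Dusp4* reached the filter on low values through the Ang II-treated mice alone, since every saline-treated WT mouse was below 1 FPKM. Over all genes, 6.38% were called higher and 2.28% lower. By adjusted p alone *Dusp5*, *Spry2* and *Spred1* were lower as well, so that 5 of 9 passed, against 38% of all genes. The median log2 fold change of the 9 members was -0.41, against -0.14 over all genes tested. *Dusp6*, *Dusp8*, *Dusp10* and *Spry4* did not pass. The groups did not overlap for 2 of 9 tested members (*Dusp1* and *Dusp4*), against 17.3% of all genes. For *Dusp4* the filter fixed this in advance, since it passed only because every Ang II-treated mouse reached 1 FPKM while no saline-treated mouse did.

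Under Ang II, *Plod1*-/- mice had more *Dusp5* and *Dusp6* than under saline, and these were the 2 of 9 tested members that were called, against 13.9% of all 12333 genes tested (8.38% higher and 5.51% lower). By adjusted p alone *Spry2* and *Spred1* were higher and *Dusp8* and *Dusp10* lower, so that 6 of 9 passed, against 43.8% of all genes. The median log2 fold change of the 9 members was 0.48, against 0.053 over all genes. *Dusp1*, *Dusp4* and *Spry4* did not pass. The groups did not overlap for 3 of 9 tested members (*Dusp5*, *Dusp8* and *Dusp10*), against 29.2% of all genes.

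Between the genotypes under Ang II, *Dusp1* and *Dusp5* were higher in *Plod1*-/- mice and were called, 2 of 9 against 11.1% of all 12356 genes tested (7.45% higher and 3.67% lower). By adjusted p alone *Spry2* and *Spred1* were also higher and *Dusp10* lower, 5 of 9 against 31.2% of all genes. The genotypes did not overlap under Ang II for 2 of 9 (*Dusp1* and *Dusp5*), against 15.1% of all genes. This comparison shares its mice with both responses to Ang II. Under saline none of 8 tested members was called between the genotypes or passed by limma's adjusted p alone, against 0.767% (0.358% higher and 0.408% lower) and 6.55% of all 11999 genes. At an unadjusted p below 0.05, 6 of these 8 passed, against 27.1% of all genes.

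The difference between both responses was tested over all 20 mice. Of 9 tested members 6 were called, against 16.1% of all 13263 genes tested (9.69% higher and 6.36% lower). *Dusp1*, *Dusp5*, *Dusp6*, *Spry2* and *Spred1* responded more in the upward direction in *Plod1*-/- mice than in WT mice, and *Dusp4* responded less. The median difference of the 9 members was 1.06, against 0.12 over all genes, and quantile normalization moved the latter to -0.039. For *Dusp5*, *Spry2* and *Spred1* the adjusted p was below 0.05 in both genotypes with opposite signs, but for each of them the pass in 1 genotype or both depended on the fit. In WT mice the pass was lost for *Dusp5* in 10 and for *Spry2* in 11 of 18 alternative fits, and in *Plod1*-/- mice for *Spry2* in 2 and for *Spred1* in 12 of 19. Their signs were the same in all of these fits.

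**Figure D2:**
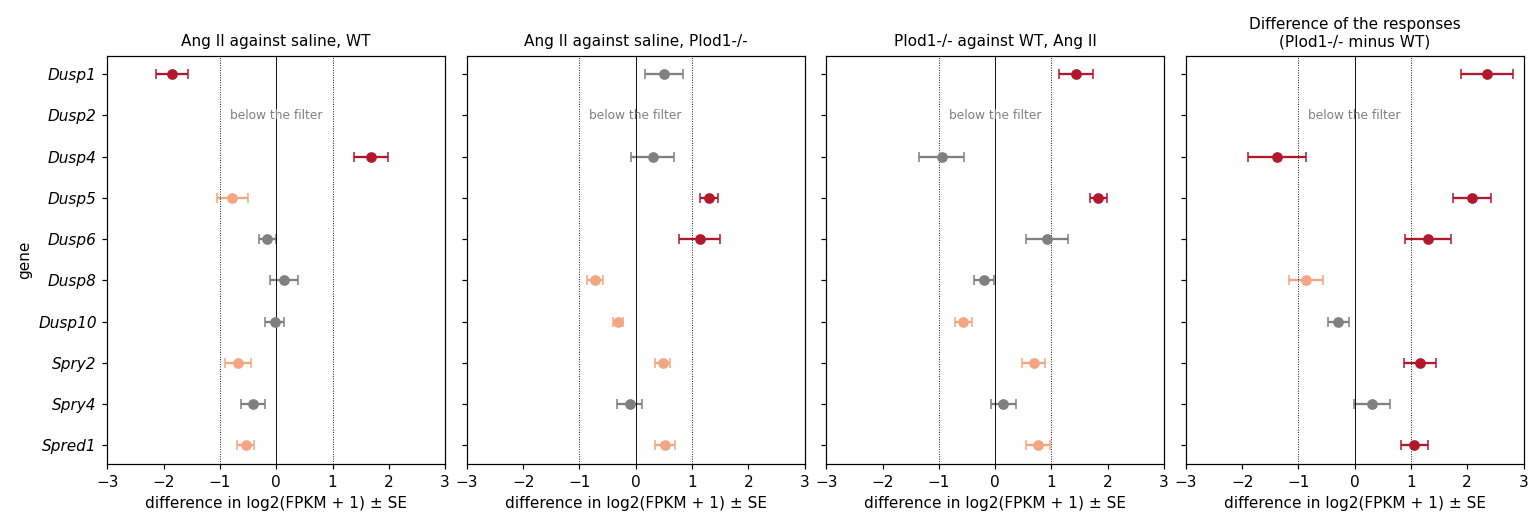
Differences in log2(FPKM + 1) with their standard errors (x axis) for each gene (y axis) in the responses to Ang II, between the genotypes under Ang II, and between both responses. Dark red marks an adjusted p below 0.05 with a difference above 1 in size (dotted lines), pale red an adjusted p below 0.05 alone, and grey neither. *Dusp5* fell on opposite sides of 0 in WT and *Plod1*-/- mice (-0.78 and 1.30).

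Among the nuclear phosphatases, *Dusp1* (ENSMUSG00000024190, chromosome 17, 26505590 to 26562128 of GRCm38, minus strand) showed the largest difference between the responses at the pseudocount of 1, whereas with 0.1 that of *Dusp5* was larger (2.78 against 2.36). Its FPKM was 539, 355, 358, 375 and 199 in the 5 saline-treated WT mice and 82.1, 107, 111, 145 and 57.2 in the 5 Ang II-treated WT mice. Saline-treated *Plod1*-/- mice held 133, 112, 193, 362 and 202 FPKM, and Ang II-treated *Plod1*-/- mice held 208, 355, 431, 214 and 178 FPKM. All Ang II-treated WT mice lay below all saline-treated WT mice and below all Ang II-treated *Plod1*-/- mice, whereas the *Plod1*-/- groups overlapped. In WT mice *Dusp1* fell under Ang II by 1.85 on the log2 scale (SE 0.28, adjusted p = 0.00197 by limma), and its mean level under Ang II was 0.275 times that under saline. Its log2 fold change in *Plod1*-/- mice came to 0.50 ± 0.34 (SE, adjusted p = 0.260 by limma). Under Ang II *Dusp1* was higher in *Plod1*-/- than in WT mice by 1.43 ± 0.30 (SE, adjusted p = 0.00768 by limma), with means that differed 2.76-fold. Both responses of *Dusp1* differed by 2.35 ± 0.47 (SE, adjusted p = 0.00108 by limma). Under saline the genotypes differed by -0.92 ± 0.32 (SE, adjusted p = 0.101 by limma), with overlapping values.

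*Dusp5* (ENSMUSG00000034765, chromosome 19, 53529109 to 53542431, plus strand) encodes a nuclear phosphatase specific for ERK. Its FPKM was 6.73, 2.66, 1.21, 2.38 and 1.79 in saline-treated and 1.21, 1.46, 0.838, 0.775 and 1.23 in Ang II-treated WT mice. The *Plod1*-/- mice held 1.28, 1.99, 2.73, 2.65 and 1.66 FPKM under saline and 7.03, 4.79, 7.80, 7.25 and 5.64 FPKM under Ang II. Every Ang II-treated *Plod1*-/- mouse lay above every saline-treated *Plod1*-/- mouse and every Ang II-treated WT mouse, and saline-treated WT mouse 1 stood far above the rest of its group. *Dusp5* rose under Ang II in *Plod1*-/- mice by 1.30 ± 0.17 (SE, adjusted p = 0.000214 by limma), and the means differed 3.16-fold. In WT mice it fell under Ang II by 0.78 on the log2 scale (SE 0.28, limma adjusted p = 0.0444). Without saline-treated WT mouse 1 that difference was -0.50 (limma adjusted p = 0.0426), and over 18 alternative fits the adjusted p reached 0.121. Between the genotypes under Ang II it was higher in *Plod1*-/- mice by 1.83 ± 0.15 (SE, adjusted p = 0.000154 by limma), with means that differed 5.90-fold, and it ranked 7 by p among the 12356 genes tested. The difference between both responses was 2.08 ± 0.34 (SE, adjusted p = 0.000257 by limma).

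*Dusp4* (ENSMUSG00000031530, chromosome 8, 34807297 to 34819894, plus strand) encodes a nuclear phosphatase of ERK, JNK and p38. Its FPKM was 0.291, 0.310, 0.565, 0.271 and 0.887 in saline-treated and 2.53, 6.11, 6.01, 1.09 and 4.92 in Ang II-treated WT mice. Without *Plod1*, its FPKM was 1.33, 2.998, 0.431, 0.486 and 0.430 under saline and 0.225, 3.21, 0.853, 1.69 and 2.12 under Ang II. The WT groups did not overlap, the *Plod1*-/- groups did, and Ang II-treated WT mouse 4 was the lowest of its group by a wide margin. *Dusp4* rose under Ang II in WT mice by 1.68 ± 0.31 (SE, adjusted p = 0.00339 by limma), but it passed the filter on low values there only through the Ang II-treated mice and was not tested when 1 of these was left out. Its log2 fold change in *Plod1*-/- mice came to 0.30 ± 0.38 (SE, adjusted p = 0.546 by limma). Its responses differed by -1.38 ± 0.52 (SE, adjusted p = 0.0416 by limma), and this call was lost in 14 of 29 alternatives, among them 12 in which 1 mouse was left out. Under Ang II the genotypes differed by -0.95 ± 0.40 (SE, adjusted p = 0.0926 by limma), which was called without Ang II-treated WT mouse 4 (-1.24, limma adjusted p = 0.0241).

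*Dusp4* varied between mice together with markers of fat cells, which surround the aorta. The summed level of 8 adipocyte markers ran from 91.8 to 532 FPKM in saline-treated and from 896 to 5142 FPKM in Ang II-treated WT mice. It ran in *Plod1*-/- mice from 140 to 1742 FPKM under saline and from 457 to 3157 FPKM under Ang II, and none of the 8 markers was at 0 in any mouse. In 4 of 4 groups the mouse with the highest adipocyte sum also had the highest *Dusp4* level, and in 3 of 4 groups the mouse with the lowest sum had the lowest *Dusp4* level. Ang II-treated WT mouse 4, with 1.09 FPKM of *Dusp4*, held the lowest sum of its group at 896 FPKM. Saline-treated *Plod1*-/- mouse 2, with 2.998 FPKM of *Dusp4*, held the highest of its group at 1742 FPKM. The part of these markers in the *Dusp4* differences was not tested.

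**Figure D3:**
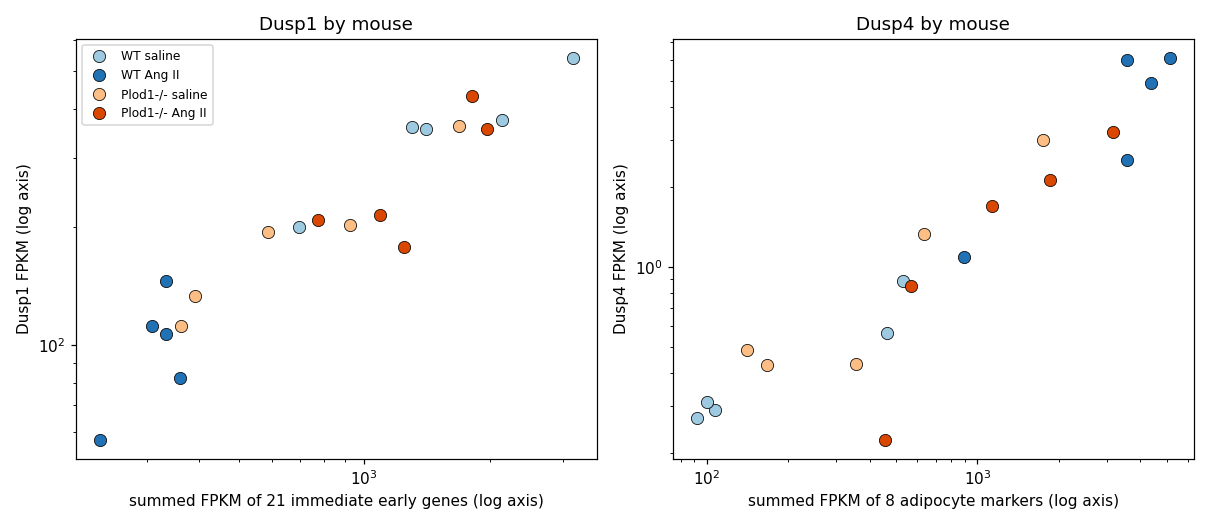
Left, *Dusp1* FPKM against the summed FPKM of 21 immediate early genes, and right, *Dusp4* FPKM against the summed FPKM of 8 adipocyte markers, with 1 point per mouse coloured by group and log axes throughout. All Ang II-treated WT mice lay at immediate early gene sums of 231 to 361 FPKM and at *Dusp1* levels of 57.2 to 145 FPKM, and the highest *Dusp4* level (6.11 FPKM) stood at the highest adipocyte sum (5142 FPKM).

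*Dusp2* (ENSMUSG00000027368, chromosome 2, 127336159 to 127338376, plus strand) encodes a nuclear phosphatase best known from activated leukocytes. Its FPKM was 0.158, 0.185, 0.209, 0.175 and 0 in saline-treated and 0.365, 1.52, 2.28, 1.29 and 3.03 in Ang II-treated *Plod1*-/- mice. WT mice held 0.344, 0.258, 0.331, 0.204 and 0.157 FPKM with saline and 0.919, 0.443, 0.441, 0.0522 and 0.869 FPKM with Ang II. The *Plod1*-/- groups did not overlap, and Ang II-treated *Plod1*-/- mouse 1 lay within the range of the Ang II-treated WT mice. In an exact two-sided permutation test the mean log2(FPKM + 1) of *Dusp2* was higher under Ang II than under saline in *Plod1*-/- mice by 1.15 (p = 0.00794, the smallest that 5 mice against 5 can give, adjusted p = 0.0397 over 5 such tests). The response in WT mice was 0.26 (exact permutation p = 0.167, adjusted p = 0.206), and the genotypes differed by 0.75 under Ang II (exact permutation p = 0.0556, adjusted p = 0.119). Under saline the differences between the genotypes were -0.14 for *Dusp2* (exact permutation p = 0.0714, adjusted p = 0.119) and 0.43 for *Dusp4* (exact permutation p = 0.206, adjusted p = 0.206).

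Macrophage and neutrophil markers were also higher in the Ang II-treated *Plod1*-/- mice. The summed level of 8 macrophage markers ran from 57.9 to 211 FPKM in saline-treated and from 642 to 3739 FPKM in Ang II-treated *Plod1*-/- mice, and all 8 were called higher under Ang II by limma. The sum of 7 neutrophil markers ran from 1.39 to 3.06 FPKM under saline, where 1 or 2 of the 7 were at 0, and from 157 to 726 FPKM under Ang II, where none was at 0. Ang II-treated *Plod1*-/- mouse 1 held the lowest *Dusp2* level and the lowest sum of both lists in its group. Mouse 5, with the highest *Dusp2* level, held the next lowest macrophage sum at 1805 FPKM (2113 to 3739 in mice 2 to 4) and the median neutrophil sum at 318 FPKM. In Ang II-treated WT mice the macrophage sum ran from 201 to 1303 FPKM and the neutrophil sum from 6.76 to 196 FPKM. The 5 red blood cell markers were also called higher in *Plod1*-/- mice under Ang II, with sums of 763 to 9716 FPKM. The part of these cells in the *Dusp2* difference, and in those of the other members in these mice, was not tested.

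*Dusp6* (ENSMUSG00000019960, chromosome 10, 99263231 to 99267489, plus strand) encodes the cytoplasmic phosphatase that is selective for ERK and is a common readout of ERK activity. Its FPKM was 11.4, 11.3, 11.4, 12.9 and 8.86 in saline-treated and 12.7, 9.62, 12.1, 8.05 and 7.66 in Ang II-treated WT mice. Saline-treated *Plod1*-/- mice held 10.4, 8.998, 7.68, 8.45 and 6.63 FPKM, and Ang II-treated *Plod1*-/- mice held 6.47, 19.6, 28.7, 37.7 and 19.8 FPKM. The WT values lay close together in both groups, and 4 of 5 Ang II-treated *Plod1*-/- mice lay above every other mouse, while mouse 1 had the lowest level of all 20. *Dusp6* rose under Ang II in *Plod1*-/- mice by 1.14 ± 0.37 (SE, adjusted p = 0.0279 by limma), a call that was lost in 7 of 20 alternatives, among them 6 that left out 1 mouse (saline-treated mouse 3, 4 or 5 or Ang II-treated mouse 3, 4 or 5). Its log2 fold change in WT mice came to -0.16 ± 0.15 (SE, adjusted p = 0.410 by limma). Under Ang II the genotypes differed by 0.93 ± 0.37 (SE, adjusted p = 0.0801 by limma), and without Ang II-treated *Plod1*-/- mouse 1 by 1.29 (limma adjusted p = 0.00236), which was called. For the difference between both responses the value was 1.30 ± 0.41 (SE, adjusted p = 0.0195 by limma).

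*Dusp8* and *Dusp10* encode phosphatases that prefer JNK and p38 over ERK. *Dusp8* (ENSMUSG00000037887, chromosome 7, 142079490 to 142095843, minus strand) had 4.14, 5.90, 5.71, 8.37 and 5.27 FPKM in saline-treated and 3.29, 3.52, 2.91, 2.79 and 2.91 FPKM in Ang II-treated *Plod1*-/- mice. These groups did not overlap, and the Ang II-treated mice lay within a narrow band. *Dusp8* fell under Ang II in *Plod1*-/- mice by 0.73 on the log2 scale (SE 0.14, limma adjusted p = 0.00238), which did not reach the fold of a call. In WT mice it ran from 1.92 to 6.81 FPKM under saline and from 2.34 to 5.70 FPKM under Ang II, and its log2 fold change was 0.14 ± 0.25 (SE, adjusted p = 0.674 by limma). Its responses differed by -0.87 ± 0.31 (SE, adjusted p = 0.0331 by limma), a pass that was lost in 12 of 28 alternative fits.

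*Dusp10* (ENSMUSG00000039384, chromosome 1, 184013302 to 184075636, plus strand) had 4.68, 4.35, 3.83, 3.99 and 4.33 FPKM in saline-treated and 3.21, 3.08, 3.69, 2.82 and 3.22 FPKM in Ang II-treated *Plod1*-/- mice. The groups did not overlap, although the highest Ang II-treated mouse (3.69) came close to the lowest saline-treated mouse (3.83). *Dusp10* fell under Ang II in *Plod1*-/- mice by 0.32 on the log2 scale (SE 0.085, limma adjusted p = 0.0120). In WT mice it ran from 3.83 to 6.56 FPKM under saline and from 3.44 to 6.56 FPKM under Ang II, and its log2 fold change was -0.027 ± 0.16 (SE, adjusted p = 0.903 by limma). Under Ang II it was lower in *Plod1*-/- than in WT mice, with a difference of -0.56 ± 0.15 (SE, adjusted p = 0.0174 by limma). The difference between its responses was -0.29 ± 0.19 (SE, adjusted p = 0.226 by limma), which did not pass.

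*Spry2* (ENSMUSG00000022114, chromosome 14, 105891947 to 105896819, minus strand) encodes the Sprouty protein most studied as an inhibitor of receptor tyrosine kinase signalling to ERK. Its FPKM was 20.5, 9.52, 9.90, 9.95 and 9.79 in saline-treated and 6.99, 5.34, 6.04, 11.2 and 5.38 in Ang II-treated WT mice. The *Plod1*-/- mice held 9.002, 7.01, 7.23, 9.01 and 7.53 FPKM under saline and 14.4, 13.2, 8.93, 11.7 and 9.80 FPKM under Ang II. The treated and untreated mice overlapped in both genotypes, and saline-treated WT mouse 1 and Ang II-treated WT mouse 4 stood above the rest of their groups. *Spry2* fell under Ang II in WT mice by 0.68 on the log2 scale (SE 0.24, limma adjusted p = 0.0413) and rose in *Plod1*-/- mice by 0.48 ± 0.14 (SE, adjusted p = 0.0153 by limma). The responses differed by 1.16 ± 0.28 (SE, adjusted p = 0.00451 by limma), and without saline-treated WT mouse 1 the difference was 0.96 (limma adjusted p = 0.00499), under the fold of a call. Under Ang II it was higher in *Plod1*-/- mice by 0.68 ± 0.20 (SE, adjusted p = 0.0260 by limma), and this pass was lost in 8 of 19 alternative fits.

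*Spred1* (ENSMUSG00000027351, chromosome 2, 117121374 to 117182279, plus strand) encodes a Sprouty-related protein that brings neurofibromin, a brake on Ras, to the membrane. Its FPKM was 6.44, 9.04, 6.51, 6.83 and 6.06 in saline-treated and 4.799, 3.90, 3.83, 6.36 and 3.67 in Ang II-treated WT mice. Without *Plod1*, its FPKM was 5.67, 5.27, 5.44, 5.84 and 4.94 under saline and 4.73, 7.90, 9.14, 10.02 and 10.6 under Ang II. In WT mice only Ang II-treated mouse 4 reached into the saline range, and in *Plod1*-/- mice 4 of 5 Ang II-treated mice lay above every saline-treated mouse while mouse 1 lay below them. *Spred1* fell under Ang II in WT mice by 0.54 on the log2 scale (SE 0.15, limma adjusted p = 0.0176) and rose in *Plod1*-/- mice by 0.52 ± 0.17 (SE, adjusted p = 0.0336 by limma). The responses differed by 1.06 ± 0.23 (SE, adjusted p = 0.00214 by limma). The difference was under the fold of a call without saline-treated WT mouse 2 (0.977) or without Ang II-treated *Plod1*-/- mouse 4 (0.998) or 5 (0.979). It was also under that fold with quantile normalization (0.913) and with mitochondrial genes left out and FPKM rescaled (0.963). Under Ang II it was higher in *Plod1*-/- mice by 0.76 ± 0.21 (SE, adjusted p = 0.0196 by limma), and this pass was lost in 4 of 19 alternative fits.

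*Spry4* (ENSMUSG00000024427, chromosome 18, 38586247 to 38601415, minus strand) encodes a further Sprouty inhibitor and passed in none of the 5 comparisons. It ran from 4.96 to 12.5 FPKM in saline-treated and from 4.13 to 6.03 FPKM in Ang II-treated WT mice, and its log2 fold change was -0.41 ± 0.21 (SE, adjusted p = 0.126 by limma). With *Plod1* deleted it ran from 5.14 to 7.64 FPKM under saline and from 3.90 to 10.5 FPKM under Ang II, and its log2 fold change was -0.11 ± 0.22 (SE, adjusted p = 0.719 by limma). The highest values of both of these wide groups came from 1 mouse each, saline-treated WT mouse 1 (12.5) and Ang II-treated *Plod1*-/- mouse 1 (10.5).

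Under saline, the tested members were mostly lower in *Plod1*-/- mice, with a median log2 difference of -0.29 over 8 members against -0.0072 over all genes, but none passed. *Spry2* and *Spred1* did not overlap between the genotypes, 2 of 8 against 9.52% of all genes, with log2 differences of -0.48 ± 0.19 and -0.30 ± 0.098 (SE, limma adjusted p = 0.136 and 0.0835). *Dusp6* differed by -0.37 ± 0.12 (SE, adjusted p = 0.0805 by limma), and *Dusp8* by 0.67 ± 0.24 in the other direction (SE, adjusted p = 0.108 by limma).

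Single mice carried several members at once. Saline-treated WT mouse 1 held the highest level of its group in 6 of the 10 members, and saline-treated WT mouse 5 the lowest in 4. Ang II-treated WT mouse 4 held the highest level of its group in 5 members and the lowest in 3. Ang II-treated *Plod1*-/- mouse 1 held the lowest level of its group in 4 members (*Dusp2*, *Dusp4*, *Dusp6* and *Spred1*) and the highest in 2 (*Spry2* and *Spry4*). In the responses of *Plod1*-/- mice and the saline comparison the numbers of members called without both libraries holding *Xist* RNA were 2 and 0, as with them. Under Ang II the number between the genotypes was 3, with *Dusp6* added, and 5 responses differed, with *Dusp4* lost.

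Immediate early genes are transcribed within minutes of stimulation, and *Dusp1* is usually counted among them. Of 20 others tested, 11 were called lower under Ang II in WT mice, as *Dusp1* was, against 2.28% of all genes. Their summed level over 21 genes, *Dusp1* not among them, was 698 to 3173 FPKM in saline-treated and 231 to 361 FPKM in Ang II-treated WT mice. The sum in *Plod1*-/- mice was 362 to 1686 FPKM under saline and 776 to 1972 FPKM under Ang II. In both saline-treated groups the mouse with the highest *Dusp1* level also held the highest sum (mouse 1 of the WT and mouse 4 of the *Plod1*-/- group), and in the Ang II-treated groups it did not. The median log2 fold change of the 20 in WT mice was -1.89, and the largest changes among the 11 were those of *Fos* (-5.03), *Fosb* (-4.27) and *Egr1* (-3.70). Of 21 tested, 6 were called higher under Ang II in *Plod1*-/- mice, against 8.38% of all genes, and 1 was lower by adjusted p alone. Under Ang II 13 were called higher in *Plod1*-/- than in WT mice, against 7.45% of all genes. The responses differed upward for 15, against 9.69% of all genes. Mitochondrial genes took a mean of 23.3% of the FPKM sum in Ang II-treated WT mice, against 11.1% under saline and 13.4% and 13.35% in saline-treated and Ang II-treated *Plod1*-/- mice. With the mitochondrial genes left out and FPKM rescaled, *Dusp1* fell in WT mice by 1.81 on the log2 scale (limma adjusted p = 0.00200).

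Markers of cell types also differed under Ang II. In WT mice 7 of 7 tested adipocyte markers and 3 of 4 tested skeletal muscle markers were called higher, and 3 of 8 smooth muscle markers were called lower, with a median of -0.89. The summed level of 6 skeletal muscle markers was 3.64 to 6.401 FPKM in saline-treated and 2.71 to 288 FPKM in Ang II-treated WT mice, where mouse 1 lay below the saline range and the other 4 mice above it. In *Plod1*-/- mice 6 of 8 smooth muscle markers were called lower under Ang II, with a median of -1.73, and no skeletal muscle marker was called. Of 8 endothelial markers 3 were called higher in WT and 2 in *Plod1*-/- mice. Others of this list went the other way, with 2 lower in WT and 1 lower in *Plod1*-/- mice by adjusted p alone. The medians of the 8 were 0.18 and 0.17. Of 8 fibroblast markers none was called in WT mice, where 2 were lower by adjusted p alone, and 2 were called higher in *Plod1*-/- mice. The fibroblast sum in *Plod1*-/- mice was 532 to 889 FPKM under saline and 982 to 5108 FPKM under Ang II. Most of this rise lay in the collagen genes *Col1a1* (means of 96.9 and 1217 FPKM) and *Col1a2* (111 and 551 FPKM). The means of *Pdgfra*, *Lum* and *Dpt* were also higher under Ang II, whereas those of *Dcn*, *Fbln1* and *Pi16* were lower. The smooth muscle sum was 14151 to 20490 FPKM in saline-treated and 5532 to 17074 FPKM in Ang II-treated WT mice, and 15081 to 20757 and 2327 to 16992 FPKM in the *Plod1*-/- groups. The part of these markers in the differences of *Dusp1* and the other members was not tested.

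A share of the target genes of ERK signalling was called, lower under Ang II in WT mice and higher in *Plod1*-/- mice. Of 20 such genes tested in WT mice, 8 were called lower under Ang II, among them *Errfi1*, an inhibitor of the EGF receptor (-2.52), and *Hbegf*, one of its ligands (-2.07), and the median was -0.999 against -0.14 over all genes. Of 19 tested in *Plod1*-/- mice, 9 were called higher, led by the transcription factor gene *Myc* (2.86), and the median was 0.78 against 0.053. Another 3 of the 19 (*Egr3*, *Etv1* and *Etv5*) were lower in *Plod1*-/- mice by limma's adjusted p alone, against 2474 of all 12333 genes tested. Between the genotypes under Ang II 10 of 18 were higher in *Plod1*-/- mice, with *Plaur*, the urokinase receptor gene, at 2.56. Under saline 3 of 20 were called lower in *Plod1*-/- mice, against 0.408% of all genes. *Etv4* was higher there by adjusted p alone (0.73, limma adjusted p = 0.0147). The responses differed upward for 12 of 20, with a median of 1.86 against 0.12 over all genes. Of these 21 genes *Fos*, *Egr1*, *Egr2* and *Egr3* are also counted among the immediate early genes above.

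Of the cascades that the members act on, the calls stand beside the shares of all genes called. These were 8.66% in WT mice, 13.9% in *Plod1*-/- mice and 16.1% for the responses. Between the genotypes they were 11.1% under Ang II and 0.767% under saline. Of 19 genes of the Ras-ERK cascade, from adaptor proteins to ERK itself, none was called in WT mice by limma. By adjusted p alone 5 of the 19 were lower there, against 2575 of all 11994 genes tested. In *Plod1*-/- mice, between the genotypes under Ang II and between the responses 1 of the 19 was called. That gene was *Nras*, a Ras gene, at 1.31, 1.23 and 1.71. In the JNK and p38 pathway 1 of 12 genes, *Map2k3*, which encodes a kinase that activates p38, was called lower in WT mice (-1.08), and 1 of 13, the p38 gene *Mapk11*, was called higher in *Plod1*-/- mice (1.66). *Mapk11* was also higher between the genotypes under Ang II (1.003), and the response of *Map2k3* differed (1.08). Upstream, 3 of 21 receptors and ligands were called higher under Ang II in WT mice (*Kdr*, *Vegfa* and *Pdgfb*). In *Plod1*-/- mice 3 of 22 were called higher (*Igf1*, *Agtr1a* and *Kdr*) and *Fgf1* was called lower. By adjusted p alone more were lower than higher, 7 against 4 in WT mice and 7 against 5 in *Plod1*-/- mice. Over all genes 38% and 43.8% passed there in either direction. Between the genotypes 1 was called under Ang II (*Igf1*, higher in *Plod1*-/- mice) and 1 of 20 under saline (*Pdgfb*, higher in *Plod1*-/- mice). The responses differed for 5 of 23, upward for *Igf1*, *Egfr* and *Pdgfra* and downward for *Fgf1* and *Pdgfb*.

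The remaining relatives of the members are read against the same shares of all genes. Of the 6 further genes of both families in the files (*Dusp7*, *Dusp9*, *Dusp16*, *Spry1*, *Spred2* and *Spred3*), 5 were tested and none was called in any of the 5 comparisons by limma. By adjusted p alone 2 of 5 were higher in *Plod1*-/- mice under Ang II and 1 of 5 under saline. Over all genes 31.2% and 6.55% passed there in either direction. Of the dual-specificity phosphatases outside the MAP kinase group, 1 of 10 tested, *Dusp28*, was called, with a lower response in *Plod1*-/- mice (-1.34).

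The genes whose 4 group means lay nearest in shape to those of *Dusp1* were *Gm16973*, *Gm18541*, *Mtf2*, *Mroh2a* and *Psd3*, with Euclidean distances of 0.00648 to 0.0211 between scaled profiles among 13254 genes. Their group means ran from 0.777 to 3.75 FPKM, so that the likeness holds for the order and spacing of the means and not for the level or the size of the change.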

How the data were processed

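RNA from the abdominal aortas of 20 mice was sequenced, and each mouse was assigned to its group and replicate number from the labels. The authors deposited FPKM for each Ensembl gene. Their methods describe removing ribosomal reads, aligning with HISAT2 and quantifying with stringtie, cuffquant and cuffnorm. The submitters' processing notes name HISAT2 2.1.0, Bowtie2 2.2.3, HTSeq 0.6.0 and the build mm10. Both descriptions differ in the programs they name, and which of them made the deposited values is not known. Symbols and coordinates came from GENCODE mouse release 21 (GRCm38). Read counts were not used here, so depth is unknown and no counting interval is given. The relative depth estimated from 11880 low genes could not show large differences between libraries.

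FPKM was transformed to log2(FPKM + 1), and genes at 1 FPKM or more in at least 5 of the mice fitted were tested with limma 3.58.1 in R 4.3.3 (lmFit, eBayes with a variance trend, Benjamini-Hochberg adjustment over all genes tested). The edgeR test of the original study needs counts and was not run. Figures were drawn with matplotlib 3.10.9. Members below the filter were compared by two-sided exact permutation tests. The limma fits were also run on simulated data in which only well expressed genes were changed, so low genes such as *Dusp2* and *Dusp4* were not covered. The 10 members, the gene lists and the tests were chosen with earlier results of these data known. All members are named, and list genes are named among the 4 called genes of each list with the largest change. The 5 genes nearest in shape to the member with the largest difference between responses are named too. Alternatives used all genes without a filter, a pseudocount of 0.1, a block for the replicate number, eBayes without the trend, arrayWeights per mouse, quantile normalization, mitochondrial genes left out, all groups in one fit, adjusted p alone, both libraries holding Xist RNA left out, and each mouse left out in turn.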

Additional observations from a re-analysis of the deposited data

Results flagged for a closer look

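In 6 of 40 combinations of a member and a group, the extreme mouse lay apart from the other 4 by more than Dixon's 95% critical value of 0.71 for 5 mice, and chance flags about 1 in 20 such groups. Saline-treated WT mouse 1 was high for *Dusp5* (6.73 FPKM, the others 1.21 to 2.66), for *Dusp8* (6.81 FPKM, the others 1.92 to 3.26) and for *Spry2* (20.5 FPKM, the others 9.52 to 9.95). The same mouse held the highest summed level of 21 immediate early genes, 3173 FPKM, and the part of these in the flags was not tested. Saline-treated WT mouse 2 was high for *Spred1* (9.04 FPKM, the others 6.06 to 6.83). Ang II-treated WT mouse 4 was high for *Spry2* (11.2 FPKM, the others 5.34 to 6.99). Saline-treated *Plod1*-/- mouse 5 was listed at 0 for *Dusp2*, against 0.158 to 0.209 FPKM in the others.

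For 6 members the response to Ang II differed between the genotypes by limma's interaction term over 20 mice. The response of *Plod1*-/- mice minus that of WT mice was 2.35 for *Dusp1*, 2.08 for *Dusp5*, 1.30 for *Dusp6*, 1.16 for *Spry2*, 1.06 for *Spred1* and -1.38 for *Dusp4*, in log2(FPKM + 1). Both responses in this difference were set against saline-treated mice, in which *Dusp1*, *Dusp5*, *Dusp6*, *Spry2* and *Spred1* had lower means in *Plod1*-/- than in WT mice, and *Dusp4* a higher mean (1.14 against 0.465 FPKM), without passing the test.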

How the results depend on the processing

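No member that was called changed its direction under any alternative. The number of members called was the reported one or within 1.5 times of it except as follows. By adjusted p alone it rose from 2 to 5 in WT mice, from 2 to 6 in *Plod1*-/- mice and from 2 to 5 between the genotypes under Ang II, where weights per mouse also gave 5. With 1 mouse left out it ran from 1 to 2 in WT mice, from 1 to 2 in *Plod1*-/- mice, from 2 to 3 between the genotypes under Ang II, from 0 to 0 under saline and from 4 to 6 for the difference between the responses. The drop to 1 in WT mice came with each Ang II-treated mouse left out, which put *Dusp4* below the filter.

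The *Dusp4* difference between the responses was lost without saline-treated WT mouse 1, 2, 3 or 4, Ang II-treated WT mouse 2, 3 or 5, saline-treated *Plod1*-/- mouse 1 or 2, or Ang II-treated *Plod1*-/- mouse 1, 3 or 4, and without a filter its limma adjusted p was 0.102. Without a filter *Dusp2* was called in place of *Dusp6* in *Plod1*-/- mice, and the cause was not tested. *Dusp5* in WT mice was called with a pseudocount of 0.1 (-1.14). Quantile normalization moved the median of all genes from 0.12 to -0.044 between the genotypes under Ang II and from 0.053 to -0.088 in *Plod1*-/- mice.

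The replicate number as a block changed none of the member counts (2, 2, 2, 0 and 6). By adjusted p alone it ended the pass of *Spred1* in *Plod1*-/- mice (limma adjusted p = 0.0536) and of *Dusp8* for the difference between the responses (0.0571). Same-numbered mice did not vary together, with correlations of -0.332 to 0.421 of which 5 of 20 were over 0.1, and in 3 of 20 cases a mouse correlated best with its own number. The 5 mice of a group and unknown read depth limit the precision for low genes such as *Dusp2*.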
